A study of Mus musculus with 4 samples.

Results

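The 60 genes described here encode the voltage-gated calcium channels, the voltage-gated sodium channels and 3 families of TRP (transient receptor potential) channels, and they were read in nuclei of the mouse pituitary gland. They were chosen by a rule on symbols, set with earlier results of these data known. The rule took every gene of the deposited tables whose symbol starts with Cacna, Cacnb or Cacng, is Scn with digits and a or b, or is Trpc, Trpm or Trpv with a digit, leaving out antisense symbols that end in os, which gave 60 of 32285 genes. Single-nucleus RNA sequencing had been carried out on 4 libraries, 2 of them labelled 22 months of age (1 of males and 1 of females) and 2 labelled 5 months (1 of males and 1 of females). All mice were wild-type UM-HET3, a genetically heterogeneous stock, each library pooled nuclei of 3 snap-frozen glands, and no group has a second library. A value for a library is therefore a value for a pool. The p-values rest on these libraries and not on single mice, and by labelled age or sex mostly on a variance shared across genes.

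Voltage-gated calcium channels are built on a pore-forming alpha1 subunit, with alpha2delta and beta subunits that raise its density in the membrane. Voltage-gated sodium channels pair a pore-forming alpha subunit with small beta subunits, and TRP channels pass sodium or calcium in response to receptors, lipids, heat or osmotic state. Hormone cells of the anterior pituitary fire action potentials, and calcium entry through voltage-gated channels is the textbook trigger of their secretion.

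Transcripts of the sex chromosomes went against the labels of 2 libraries. Xist, the RNA of the inactive X chromosome, was counted in 97.3% of nuclei of the 22-month males and 85.8% of the 22-month females, against 0.112% of the 5-month males and 0.212% of the 5-month females. Genes of the Y chromosome were counted in 0.203%, 0.304%, 85.6% and 84.3% of nuclei in the same order. Both libraries labelled 22-month thus carried the female pattern and both labelled 5-month the male pattern, so labelled age and sex chromosomes cannot be told apart in any comparison below, and labelled sex is not the sex that the chromosomes show. After filters and doublet removal 10355, 7235, 7156 and 6597 nuclei remained in the same order, with medians of 4141 to 4745 counts (unique molecular identifiers, UMIs) per nucleus in the 22-month libraries and 3460 to 3643 in the 5-month ones. Pairs of libraries shared 14 to 43 barcodes.

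The nuclei formed 26 clusters without use of any of the 60 genes, and marker genes named most of them. Cycling-like and lymphocyte-like nuclei were named but not used, with under 30 nuclei in each library. In 22-month males and females, then 5-month males and females, they numbered 20, 8, 7 and 3, and 10, 21, 1 and 7. The 11 classes used each held 30 nuclei or more in all 4 libraries. They are 6 hormone classes (somatotrope-like, lactotrope-like, corticotrope-like, melanotrope-like, gonadotrope-like and thyrotrope-like) and 5 others (stem-like, pituicyte-like, fibroblast- and mural-like, endothelial-like and macrophage-like), with 46 to 4608 nuclei per class and library. Levels are counts relative to a total of 1000000 (CPM) in the counts summed over the nuclei of a class in a library, and a mean ± SD is over the 4 libraries. RNA of hormone cells was present in every class: the lactotrope marker list summed to 77200, 32210, 14650 and 7256 CPM in the endothelial-like nuclei, giving the libraries as before. The lactotrope-like class also held different clusters in the 2 labelled ages, cluster 11 in the 5-month libraries and clusters 20, 22, 23 and 25 in the 22-month ones. Gonadotrope-like nuclei were mostly of cluster 17 in the 22-month libraries and cluster 7 in the 5-month ones. In the somatotrope-like class, the 22-month libraries gave most of cluster 3 (56.4% from the males alone), while 5-month males and females gave 52.8% and 41.9% of cluster 0 and 47.3% and 50.4% of cluster 5. Melanotrope-like nuclei of the 5-month males lay apart too, giving 96.5% of cluster 9 and 5.47% of cluster 10, which held most of the class in the other libraries. Unnamed nuclei made up 5.88% and 14.5% in the 22-month males and females, against 0.112% and 0.333% in the 5-month males and females.

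Of the 60 genes, 36 reached a mean of 20 CPM in at least 1 class. The other 24 were Cacna1s, Cacna1e, Cacna1h, Cacna2d4, Cacnb1, Cacng1, Cacng3, Cacng5, Cacng6, Scn1a, Scn4a, Scn10a, Scn11a, Scn2b, Scn4b, Trpc7, Trpm1, Trpm5, Trpm6, Trpm8, Trpv1, Trpv3, Trpv5 and Trpv6. Over all comparisons 52 of the 60 passed the filter on low counts at least once, and 8 never did. In a class against others, a positive log2 fold means higher in that class: a hormone class was set against the mean of the other 5 hormone classes, and each other class against the mean of the 6 hormone classes. Genes passed at an adjusted p under 0.05 (edgeR, quasi-likelihood test, adjusted over all genes tested by Benjamini and Hochberg), and 41 of the 60 were expressed well enough for this comparison. Other genes of the same nuclei had formed the classes, though none of these 60.

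**Figure D1:**
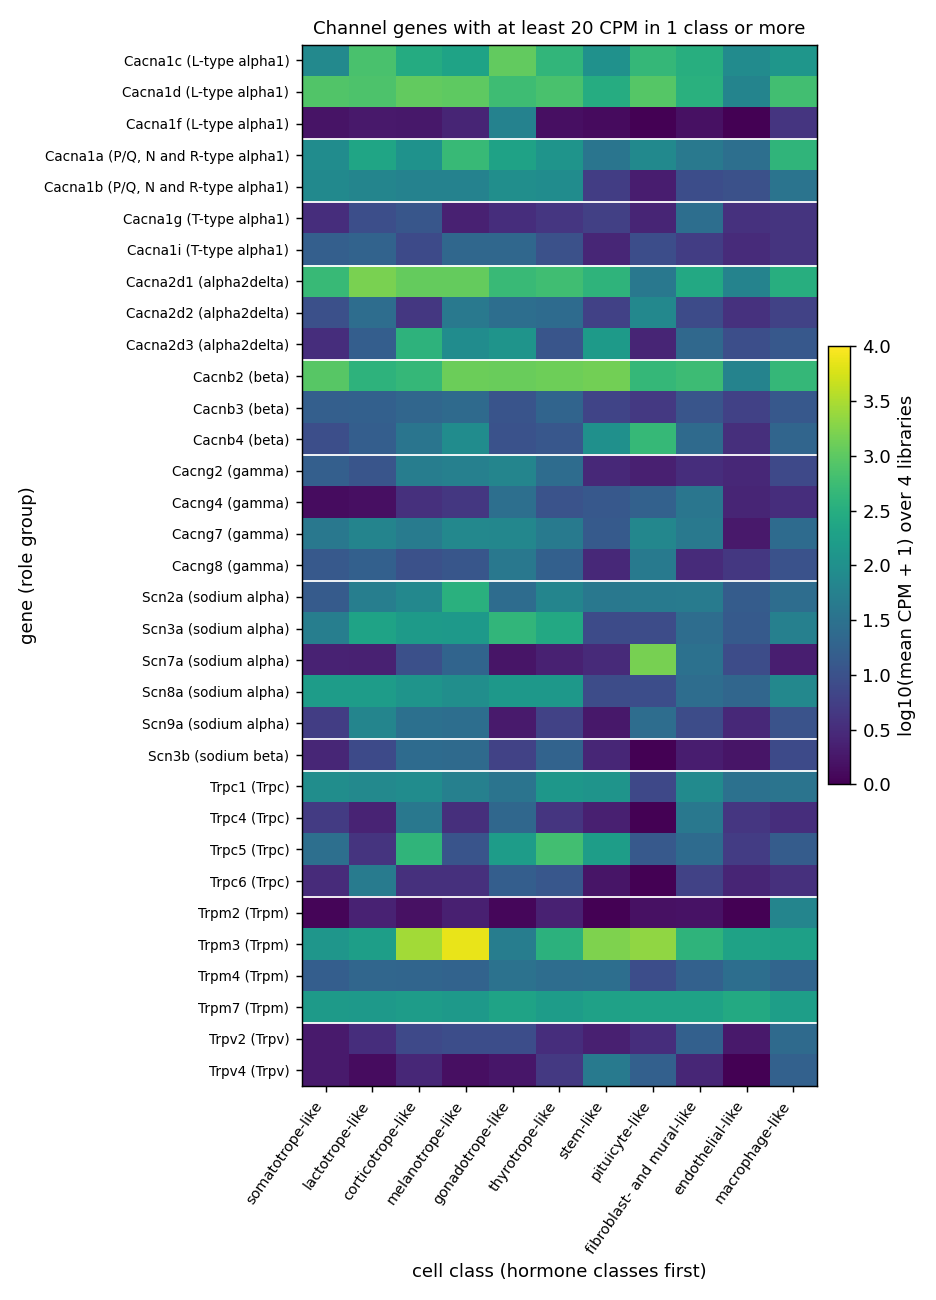
Mean level of 33 of the 36 channel genes that reached 20 CPM in at least 1 of 11 cell classes; columns are classes, rows are genes by role group, and colour is log10(mean CPM + 1) over the 4 libraries. Trpm3 in melanotrope-like nuclei, at a mean of 7298 CPM, is the brightest cell, while Trpm7 is nearly even across classes.

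Among the sodium channel alpha genes, 5 neighbours on 1 chromosome were highest in 4 different classes. The genes Scn3a, Scn2a, Scn1a, Scn9a and Scn7a lie within 1328 kb of mouse chromosome 2 (mm10, chr2:65457118-66784914). As a mean over the 4 libraries, Scn3a was highest in gonadotrope-like nuclei, Scn2a and Scn1a in melanotrope-like, Scn9a in lactotrope-like and Scn7a in pituicyte-like nuclei. Scn3a, highest in gonadotrope-like nuclei, was not among the genes picked by hand for display. The promoters shown are those of 3 neighbours that each had their highest mean in a different class. Each is 300 bases of GRCm38.p6 around a start site annotated by RefSeq, 250 before it and 50 after it, read 5′ to 3′ on the strand of the gene, with a matched motif in capitals. The first is one of 2 Scn2a promoters in the RefSeq table (chr2:65668436-65668735, plus strand), with the letters TATAAA of a TATA box. Those letters begin at base 167 of the 300, while the start site follows base 250. The other Scn2a promoter, not shown, held none of the motifs searched. Scn9a (chr2:66634913-66635212, minus strand) held none of the 4 motifs searched, and Scn7a (chr2:66784861-66785160, minus strand) held TAATCC, the letters bound by bicoid-type homeodomain factors such as Pitx1.
Scn2a: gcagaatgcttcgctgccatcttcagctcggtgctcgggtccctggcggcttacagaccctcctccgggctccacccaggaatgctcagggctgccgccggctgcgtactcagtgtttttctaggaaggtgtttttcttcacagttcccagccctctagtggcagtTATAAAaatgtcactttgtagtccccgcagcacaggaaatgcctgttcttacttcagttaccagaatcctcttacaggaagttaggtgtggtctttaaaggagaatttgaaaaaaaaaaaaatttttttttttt
Scn9a: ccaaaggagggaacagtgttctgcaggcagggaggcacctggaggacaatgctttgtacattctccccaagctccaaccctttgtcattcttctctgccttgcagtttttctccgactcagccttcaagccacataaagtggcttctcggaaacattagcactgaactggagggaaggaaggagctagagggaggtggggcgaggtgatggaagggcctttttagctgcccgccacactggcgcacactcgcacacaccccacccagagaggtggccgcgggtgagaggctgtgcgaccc
Scn7a: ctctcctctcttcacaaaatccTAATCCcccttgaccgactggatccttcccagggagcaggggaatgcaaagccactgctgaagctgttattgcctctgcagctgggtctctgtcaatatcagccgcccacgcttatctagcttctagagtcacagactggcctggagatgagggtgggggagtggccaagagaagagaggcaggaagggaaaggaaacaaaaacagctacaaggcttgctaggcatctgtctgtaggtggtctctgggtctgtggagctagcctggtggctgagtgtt

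The search read both strands for 4 motifs, none of which contains another: the TATA box (TATAAA), the bicoid-type homeodomain motif (TAATCC), the palindromic oestrogen response element and the RE1 half-site (TTCAGCACC). Among 32851 promoters of the table, 13.6%, 7.06%, 0.07% and 0.371% held them in that order. The table held 63 promoters for 48 of the 60 genes, of which 7 held TATAAA, 5 held TAATCC and none held the other motifs. A match is a description of these letters and not a bound site.

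Scn7a, a sodium channel of glia and sensory neurons that responds to sodium concentration rather than voltage, had 1248, 2043, 1375 and 1393 CPM in the pituicyte-like nuclei. Here and below, 4 values of a class follow the order of 22-month males, then 22-month females, then 5-month males, then 5-month females. The next class, fibroblast- and mural-like, averaged 30.5 ± 10.6 CPM (SD, n = 4), so all 4 pituicyte-like values stood far above every other class. Its log2 fold over the hormone classes was 9.25 ± 0.23 (SE) with an adjusted p of 1.77e-29 (edgeR). Per kb of gene span it had the highest level of the 60 genes in any class, 13.6 CPM per kb. Within the hormone classes Scn7a was low but favoured melanotrope-like nuclei, at 32.3, 14.9, 13.3 and 13.5 CPM, with a log2 fold of 3.68 ± 0.36 over the other hormone classes.

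Scn2a, the sodium channel of axons and of many endocrine cells, had 342, 401, 301 and 344 CPM in melanotrope-like nuclei in the same library order. Thyrotrope-like and corticotrope-like nuclei came next, at means of 65.7 ± 23.9 and 73.5 ± 40.8 CPM, and no library of theirs reached the lowest melanotrope-like value. The log2 fold was 3.28 ± 0.14 in melanotrope-like nuclei and -1.47 ± 0.21 in gonadotrope-like nuclei, with adjusted p of 3.25e-21 and 4.38e-07 (edgeR). Scn3a, a sodium channel otherwise known from the developing brain, had 469.8, 425, 413 and 410.4 CPM in gonadotrope-like nuclei, against means of 256 ± 29.98 in thyrotrope-like and 209 ± 14.99 in lactotrope-like nuclei. These ranges did not overlap, and Scn3a was lower in stem-like nuclei, at 10.2, 7.42, 5.08 and 6.08 CPM with a log2 fold of -4.37 ± 0.25. Scn9a, the channel known from pain-sensing neurons, was the third neighbour with a strong pattern, and its lactotrope-like level divided by labelled age as described further on. Its highest mean there thus rests on the 5-month libraries. Against the other hormone classes, Scn9a was called higher in corticotrope-like and melanotrope-like nuclei and lower in gonadotrope-like nuclei.

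Scn8a, the channel that carries persistent current in many neurons, was the most even of the sodium alpha genes among hormone classes, with class means between 93.4 CPM in melanotrope-like and 164 CPM in lactotrope-like nuclei. It fell to 13.7, 6.36, 1.27 and 9.13 CPM in stem-like nuclei, a log2 fold of -3.86 ± 0.25. Scn1a, Scn4a, Scn10a and Scn11a stayed under 20 CPM in every class.

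Of the sodium beta subunits, which modulate channel gating, Scn3b reached 24.0 ± 9.31 CPM in corticotrope-like and 23.0 ± 7.81 CPM in melanotrope-like nuclei, which overlapped. It had no count in the pituicyte-like nuclei of any library, which allows up to 6.27, 11.8, 14.5 and 12.9 CPM in the 4 libraries at 3 counts each. These limits cover counting error only.

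Both L-type alpha1 genes Cacna1d and Cacna1c reached 20 CPM in all 11 classes, with different leading classes. Cacna1d, the L-type channel known for opening at low voltage in pacemaking cells, had class means from 63.3 CPM in endothelial-like to 1106 CPM in corticotrope-like nuclei. Cacna1c, the L-type channel of heart and smooth muscle, had class means from 74.8 CPM in somatotrope-like to 1084 CPM in gonadotrope-like nuclei. By library, gonadotrope-like nuclei had 1095, 1510.1, 692 and 1037 CPM and lactotrope-like nuclei 859, 1018, 402 and 535 CPM. In each library the gonadotrope-like value was the higher of the pair. The log2 folds of Cacna1c were 1.88 ± 0.22 in gonadotrope-like and 1.24 ± 0.23 in lactotrope-like nuclei, and -2.46 ± 0.30 in somatotrope-like nuclei, at adjusted p of 8.87e-09, 3.83e-05 and 2.11e-08 (edgeR).

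Cacna1f, the L-type channel of photoreceptors, was a gonadotrope-like transcript here, at 31.7, 159.6, 21.3 and 17.4 CPM. In every other class its mean was at most 3.18 CPM, and its log2 fold over the other hormone classes was 5.64 ± 0.36 with an adjusted p of 2.04e-14. The 22-month females stood well above the other 3 libraries. Cacna1s, the L-type channel of skeletal muscle, had 7 counts over all nuclei.

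Among the channels of nerve endings, Cacna1a (P/Q-type) had 455, 545, 483 and 521 CPM in melanotrope-like nuclei, against means of 88.4 to 221 CPM in the other hormone classes, which no melanotrope-like value met. Its log2 fold there was 1.90 ± 0.15 at an adjusted p of 5.04e-13. Outside the hormone classes it was high in macrophage-like nuclei, at 565, 385, 361 and 364 CPM, a log2 fold of 1.13 ± 0.18 over the hormone classes. Cacna1b (N-type) had means of 58.0 to 94.0 CPM in the hormone classes. Outside them it had 33.5 ± 16.8 CPM in macrophage-like nuclei, and between 1.07 CPM in pituicyte-like and 8.84 CPM in endothelial-like nuclei as a mean in the other 4 classes. Its log2 folds were -3.82 ± 0.24 in stem-like and -6.39 ± 0.52 in pituicyte-like nuclei.

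T-type channels, which open near the resting potential, were scarce in every class. Cacna1g reached 35.4, 28.5, 16.9 and 27.5 CPM in fibroblast- and mural-like nuclei, a log2 fold of 3.18 ± 0.63 over the hormone classes. In corticotrope-like nuclei its log2 fold of 2.05 ± 0.68 passed, but not without the 5-month males (adjusted p = 0.15) or the 5-month females (adjusted p = 0.11). Cacna1h had 15.9, 14.1, 23.8 and 23.5 CPM in somatotrope-like nuclei, higher in each library than in every other hormone class, with a log2 fold of 2.92 ± 0.26. Cacna1i lay between 6.81 and 20.9 CPM as a mean in the hormone classes.

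The alpha2delta subunits, which include the targets of gabapentin (Cacna2d1 and Cacna2d2), had different leading classes. Cacna2d1 was highest in lactotrope-like nuclei, at 1521, 2449, 1004 and 1264 CPM, but corticotrope-like and melanotrope-like means of 1127 ± 151 and 1138 ± 272 CPM lay within that range. Its log2 fold in lactotrope-like nuclei was 1.10 ± 0.18, and pituicyte-like nuclei held 85.7, 23.7, 29.1 and 17.2 CPM. Cacna2d2 was the pituicyte-like counterpart, at 62.7, 55.2, 77.5 and 90.3 CPM, above every other class mean, with a log2 fold of 2.01 ± 0.25. Cacna2d3 had 284, 502, 373 and 391 CPM in corticotrope-like nuclei, against 2.42, 1.75, 1.53 and 3.72 CPM in somatotrope-like nuclei. The log2 folds of Cacna2d3 were 4.22 ± 0.32 and -4.41 ± 0.52, with adjusted p of 1.45e-13 and 7.67e-09 (edgeR).

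Beta subunits carry alpha1 to the membrane. Cacnb2 was abundant, with class means of 385 to 1393 CPM outside the endothelial-like class (60.7 ± 46.3 CPM), where its log2 fold was -3.90 ± 0.33. Cacnb4 marked other classes: it had 489, 627, 446 and 327 CPM in pituicyte-like nuclei, 96.4, 117, 80.0 and 106 CPM in stem-like nuclei and 49.6, 167, 42.6 and 86.1 CPM in melanotrope-like nuclei. The log2 folds were 4.69 ± 0.20, 2.56 ± 0.21 and 2.65 ± 0.21, and the pituicyte-like values overlapped with no other class. Cacnb3 stayed between 3.63 and 23.2 CPM as a class mean.

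The gamma subunits are small membrane proteins, of which several serve as partners of AMPA receptors in brain. Cacng2 reached 64.1 ± 31.7 CPM in gonadotrope-like, 53.4 ± 6.9 in melanotrope-like and 48.7 ± 10.7 in corticotrope-like nuclei, which overlapped. Cacng7 was broad, with means of 38.4 to 73.6 CPM in the hormone classes, and was nearly lost from endothelial-like nuclei (log2 fold -5.77 ± 0.50). Cacng4 had 43.3, 17.7, 36.7 and 13.1 CPM in gonadotrope-like nuclei and 33.3, 30.7, 42.4 and 37.4 CPM in fibroblast- and mural-like nuclei, with log2 folds of 3.96 ± 0.36 and 3.77 ± 0.46. Somatotrope-like and lactotrope-like means of Cacng4 were 0.335 and 0.456 CPM.

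Trpm3, a heat- and steroid-gated cation channel and host of a microRNA, was the most abundant of the 60 genes in any class. Melanotrope-like nuclei had 7399, 9147, 6086 and 6559 CPM and corticotrope-like nuclei 2842, 3514, 2287 and 2642 CPM. Pituicyte-like and stem-like nuclei followed at 2153 ± 362 and 1682 ± 362 CPM, and gonadotrope-like nuclei had 66.4, 22.9, 54.3 and 53.7 CPM. The melanotrope-like and corticotrope-like values did not overlap with each other. The log2 folds of Trpm3 were 4.92 ± 0.33 in melanotrope-like, 3.21 ± 0.33 in corticotrope-like and -3.86 ± 0.55 in gonadotrope-like nuclei, with adjusted p of 1.85e-15, 7.85e-10 and 3.36e-07 (edgeR). Per kb of its 856.4 kb span, its melanotrope-like level was 8.52 CPM.

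Trpm2, an oxidant-sensitive channel known from myeloid cells, had 55.6, 80.4, 45.8 and 81.4 CPM in macrophage-like nuclei and a mean of at most 1.39 CPM in every other class. Its log2 fold over the hormone classes was 6.83 ± 0.50 at an adjusted p of 3.24e-13. Trpm7, a channel fused to a kinase that most cells use, was the flattest of the genes at 20 CPM or more: its highest class mean, 267 CPM in endothelial-like nuclei, was 1.82 times its lowest, 146 CPM in melanotrope-like nuclei. The endothelial-like log2 fold was still past the threshold, at 0.62 ± 0.10. Trpm4, a sodium-passing channel opened by calcium, had class means of 7.78 to 30.7 CPM.

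The Trpc channels, opened by receptors that signal through phospholipase C, sorted by hormone class. Trpc5 had 538, 449, 709.9 and 752 CPM in thyrotrope-like, 585, 429, 274 and 338 CPM in corticotrope-like and 142, 46.4, 297 and 162 CPM in gonadotrope-like nuclei. Lactotrope-like nuclei had 3.12, 2.92, 3.4 and 2.41 CPM, below every library of those 3 classes. The log2 folds of Trpc5 were 4.08 ± 0.23, 3.39 ± 0.25, 1.62 ± 0.27 and, in lactotrope-like nuclei, -5.03 ± 0.40. Trpc6 showed the opposite placing, at 34.7, 70.0, 26.6 and 47.2 CPM in lactotrope-like nuclei, with a log2 fold of 3.46 ± 0.27 at an adjusted p of 8.99e-13 (edgeR).

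Trpc4 was shared by corticotrope-like (39.6 ± 21.7 CPM), fibroblast- and mural-like (39.3 ± 18.1 CPM) and gonadotrope-like nuclei (21.01 ± 10.7 CPM). Trpc1 was broad, at 129 ± 10.6 CPM in thyrotrope-like, 115 ± 18.8 CPM in stem-like and 33.2 ± 7.05 CPM in gonadotrope-like nuclei, where its log2 fold was -1.45 ± 0.17.

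Only Trpv2 and Trpv4 of the Trpv genes reached 20 CPM. Trpv4, an osmotic and mechanical sensor, had 35.7, 40.3, 50.8 and 39.5 CPM in stem-like nuclei, above every value in every other class. Its log2 fold over the hormone classes was 5.45 ± 0.29 at an adjusted p of 8.67e-18, and pituicyte-like and macrophage-like nuclei followed at 15.7 ± 7.42 and 16.5 ± 8.59 CPM. Trpv2 had 55.6, 21.3, 0 and 16.3 CPM in macrophage-like nuclei, so its mean there rests mostly on the 22-month males.

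**Figure D2:**
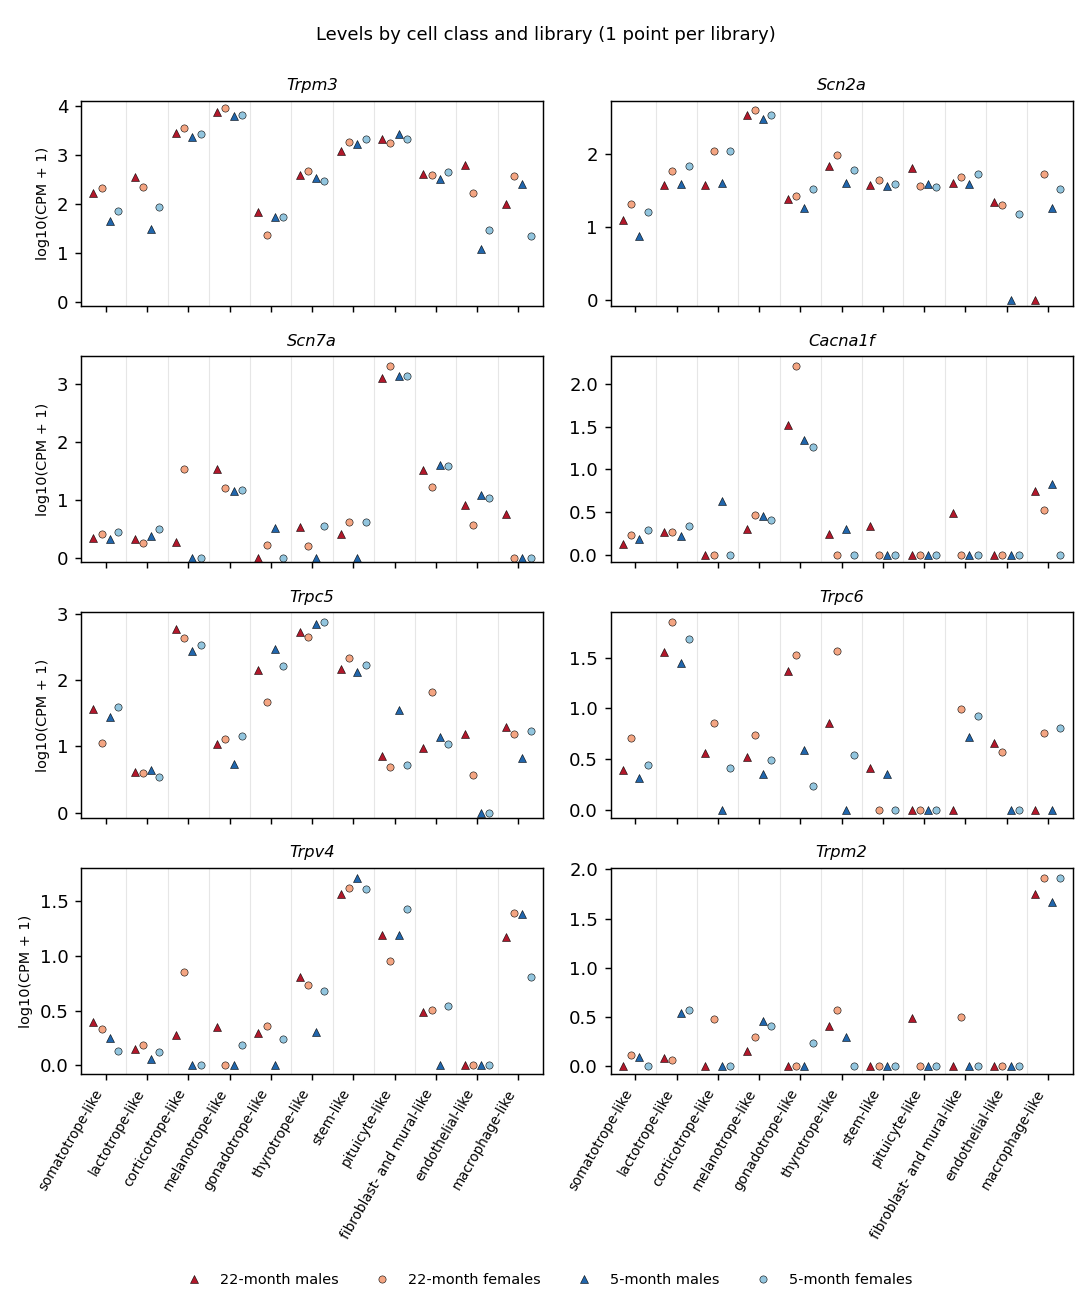
Levels of 8 channel genes in 11 cell classes, as log10(CPM + 1), with 1 point per library; triangles are libraries labelled male and circles those labelled female, in red tones for 22-month and blue tones for 5-month. The 4 libraries lie together in the leading class of Scn7a (1248 to 2043 CPM in pituicyte-like nuclei) and lie apart in the leading class of Cacna1f (17.4 to 159.6 CPM in gonadotrope-like nuclei).

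Counted over all classes, 114 of the calls between classes were higher and 143 lower. Gonadotrope-like nuclei held the largest number of higher channel genes, 20 of 41 (48.8%), where 19.0% of all 14144 genes tested were higher, and 9 lower, where 14.6% of all genes were. Melanotrope-like nuclei had 19 higher (all genes 16.9%) and 8 lower (14.2%), corticotrope-like 12 higher (11.1%) and 7 lower (7.99%), and lactotrope-like 10 higher (16.0%) and 11 lower (13.9%), or 21 of 41 either way (29.9%). Somatotrope-like nuclei had the fewest channel genes above other hormone classes, 4 higher (17.9%) against 18 lower (16.1%), and were the highest class for none of the 36 genes at 20 CPM or more. Thyrotrope-like nuclei had 12 higher (9.72%) and 5 lower (7.35%), a total of 17 that was 11 without the 5-month males.

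Outside the hormone classes, most calls were lower. Stem-like nuclei had 12 higher (25.3% of all genes) and 20 lower (21.4%), and pituicyte-like nuclei 9 higher (17.4%) and 17 lower (17.7%). Fibroblast- and mural-like nuclei had 8 higher (19.7%) and 13 lower (17.7%), endothelial-like nuclei 3 higher (20.1%) and 20 lower (22.6%), and macrophage-like nuclei 5 higher (15.9%) and 15 lower (17.0%), or 20 of 41 either way (32.8%). The median log2 fold of the 41 genes was -1.35 in stem-like and -2.42 in endothelial-like nuclei, where that of all genes was -0.00646 and -0.184. Trpm7 was among the 3 genes higher in endothelial-like nuclei.

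Labelled age set the 22-month libraries against the 5-month libraries within each class, with labelled sex as a term, so that 1 residual degree of freedom remained. Over 11 classes, 47 calls were made among the 60 genes, 30 higher and 17 lower in the 22-month libraries. Of these, 25 fell in lactotrope-like nuclei, where 13 of 46 tested were higher (12.1% of all genes) and 12 lower (11.2%). Gonadotrope-like nuclei followed with 9 higher (4.76%) and 1 lower (2.38%) of 34, or 10 either way (7.14%).

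In lactotrope-like nuclei, the largest fold was that of Cacna1g, the T-type channel. It had 10.5 and 21.6 CPM in 22-month males and females, against 0.136 and 0.11 CPM in 5-month males and females, which rest on 1 count each. The ratio of CPM was 77.0 (95% interval 13.7 to 3055, counting error only) in labelled males and 198 (35.3 to 7824) in labelled females, and the groups did not overlap. The adjusted p was 2.94e-05 (edgeR), and 0.059 without the 5-month females. Cacna1e, the R-type channel, had 25.8 and 14.3 CPM in the 22-month libraries, against 2.72 and 1.53 CPM in the 5-month ones, a log2 fold of 3.42 ± 0.25 (adjusted p = 6.24e-05). The call of Cacna1e was lost without the 5-month males (adjusted p = 0.052) or the 5-month females (0.082).

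Scn9a moved the other way. It had 6.46 and 3.3 CPM in lactotrope-like nuclei of 22-month males and females, against 94.6 and 156 CPM in 5-month males and females. These groups did not overlap, the log2 fold was -4.45 ± 0.34 with an adjusted p of 7.96e-05, and the call held when any 1 library was left out. Scn10a, a sensory neuron channel, had 7.58 and 13.2 CPM in the 22-month libraries, against 1.36 and 2.3 CPM in the 5-month ones, a log2 fold of 2.69 ± 0.31. Its call was lost without the 5-month males (adjusted p = 0.1), the 5-month females (0.087) or the 22-month females (0.07).

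Cacna1c of lactotrope-like nuclei had 859 and 1018 CPM in the 22-month libraries, against 402 and 535 CPM in the 5-month ones, which did not overlap. Its log2 fold was 1.20 ± 0.14 (adjusted p = 0.000739), and 3 of the 4 fits with a library left out lost the call: 0.13 without the 5-month males, 0.081 without the 5-month females and 0.09 without the 22-month females. Trpm3 had 351 and 216 CPM, against 30.7 and 85 CPM, a log2 fold of 2.57 ± 0.43 that passed only without the 5-month females among the 4 such fits (adjusted p = 0.084 without the 5-month males, 0.071 without the 22-month males and 0.063 without the 22-month females). Trpv3, a warmth-gated channel, stayed under 6 CPM and its call was lost without the 5-month males (adjusted p = 0.34), the 5-month females (0.3) or the 22-month females (0.51).

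Among lactotrope-like genes lower in the 22-month libraries, Cacng3 had 0.847 and 0.649 CPM, against 19.9 and 8.22 CPM in the 5-month libraries, a log2 fold of -3.96 ± 0.36 (adjusted p = 0.000204, and 0.056 without the 22-month females). Cacna2d3 had 3.34 and 3.19 CPM, against 15.4 and 36.9 CPM, a log2 fold of -2.69 ± 0.32 whose call was lost without the 5-month females (adjusted p = 0.06), the 22-month males (0.05) or the 22-month females (0.082). Neither gene's groups overlapped. Trpm2, Cacng4 and Trpv2 were also lower, at levels under 5 CPM in all 4 libraries. Cacng4 rested on 3 and 2 counts in 22-month males and females, with a ratio of CPM of 0.164 (95% interval 0.0265 to 0.767) in labelled males and 0.141 (0.0143 to 0.741) in labelled females, and it was not tested with a library left out. Trpm2 rested on 5 and 3 counts, with ratios of 0.0910 (0.0264 to 0.254) and 0.0593 (0.0115 to 0.194), and neither its call nor that of Trpv2 held in any fit with a library left out. A further 6 higher genes (Cacnb2, Cacng8, Scn3b, Cacna2d1, Trpc6 and Scn8a) had log2 folds of 0.55 to 1.55, and the remaining 6 lower ones (Cacng2, Scn1a, Cacng6, Cacnb3, Cacnb4 and Cacna2d2) of -2.05 to -0.70. Of the 25 calls, that of Scn9a was the only one kept in all 4 such fits.

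**Figure D3:**
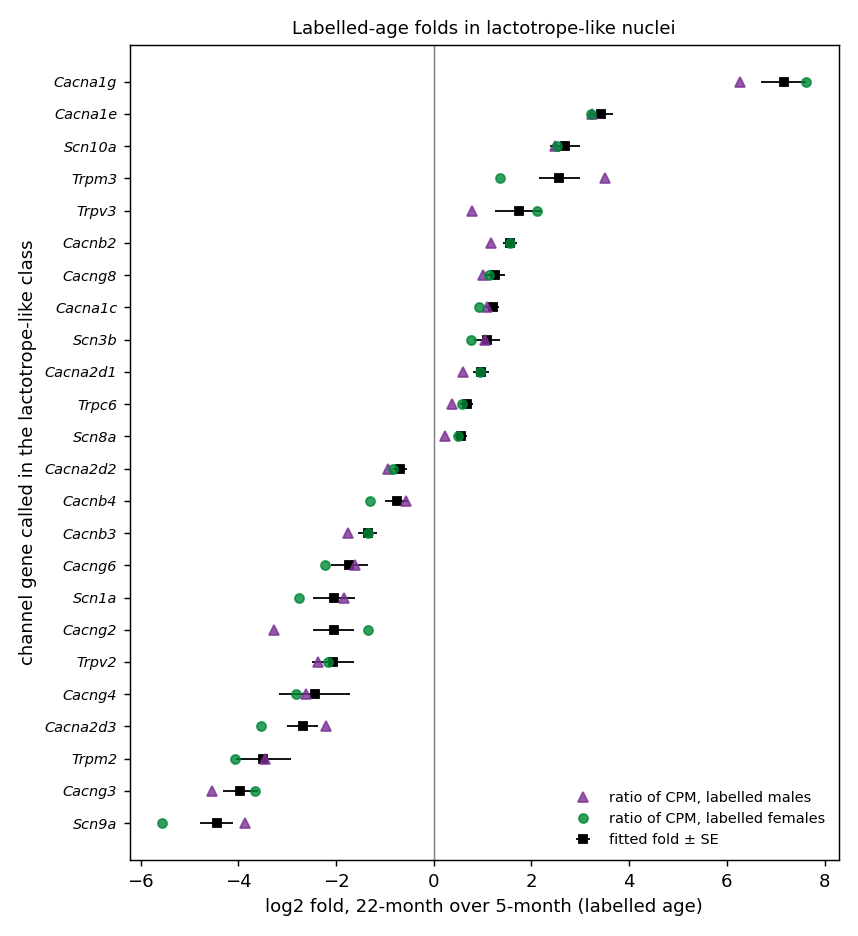
Log2 fold of the 22-month over the 5-month libraries for 24 of the 25 channel genes called in lactotrope-like nuclei; squares with bars are the fitted fold ± SE, triangles the ratio of CPM between libraries labelled male and circles that between libraries labelled female. Cacna1g lies farthest to the right and Scn9a, at -4.45, farthest to the left.

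Within the lactotrope-like class these differences ran along the clusters. Scn9a had 94.7 and 156.3 CPM in cluster 11 of 5-month males and females, and between 1.43 and 9.50 CPM in each cluster of the 22-month libraries. Cacna1g was highest in cluster 20, at 38.1 CPM in 22-month males and 35.9 CPM in 22-month females, and had 6.79 to 20.1 CPM in clusters 22, 23 and 25. Cacna1e was high in cluster 20 of the 22-month males alone, at 110.9 CPM, against 24.8 CPM in cluster 20 of the 22-month females. Since each cluster belonged almost wholly to 1 labelled age, a change in cluster and a change within nuclei cannot be told apart.

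**Figure D4:**
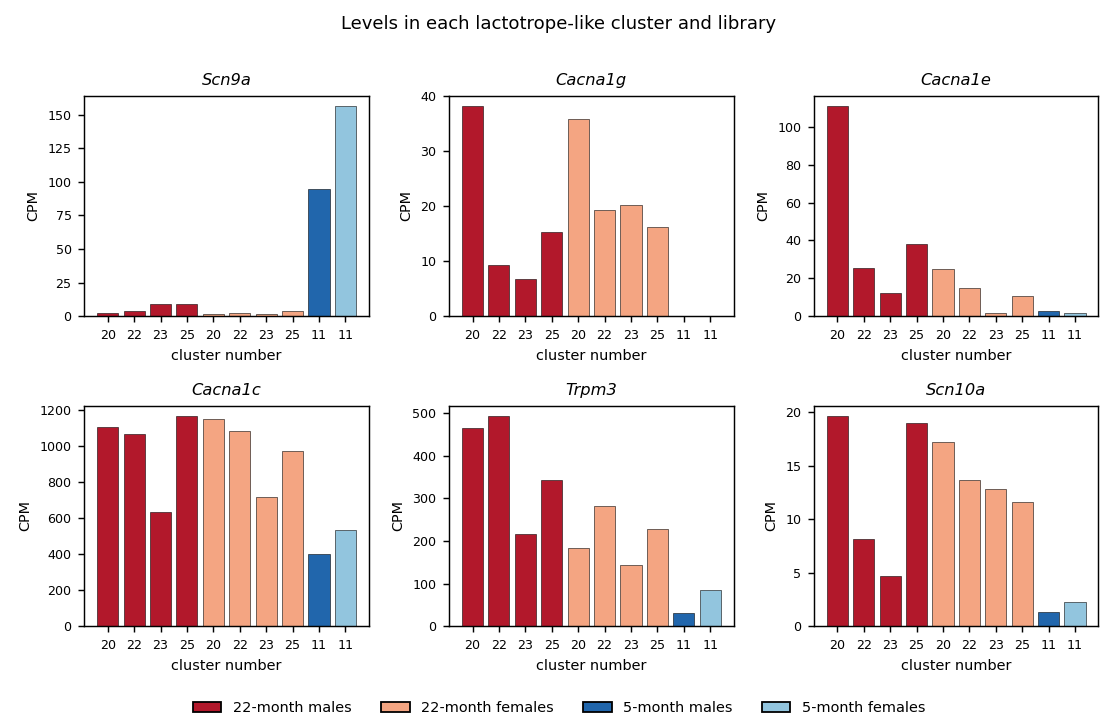
Level in CPM of 6 channel genes in each cluster of the lactotrope-like class, with 1 bar per cluster and library; bar colours give the library and numbers under the bars the cluster. Scn9a is tallest in cluster 11 (94.7 and 156.3 CPM in 5-month males and females), and Cacna1g is tallest in cluster 20 (38.1 and 35.9 CPM in 22-month males and females).

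The summed level of the lactotrope marker list also moved with labelled age, at 93090 and 60070 CPM in lactotrope-like nuclei of 22-month males and females, against 41700 and 20790 CPM in 5-month males and females. In the same nuclei the somatotrope marker list ran the other way, at 18510 and 10050 CPM, against 41170 and 27730 CPM. In the 5-month females it was above the lactotrope list. The part of either list in these folds was not tested.

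In gonadotrope-like nuclei, Trpc6 had 22.1 and 32.7 CPM in 22-month males and females, against 2.93 and 0.725 CPM in 5-month males and females. The groups did not overlap, and the ratio of CPM was 7.54 (95% interval 2.75 to 28.8) in labelled males and 45.1 (7.73 to 1817) in labelled females, the last on 1 count in the 5-month females. The adjusted p of Trpc6 was 0.00508, and 0.054 without the 5-month males or 0.11 without the 5-month females. Trpc6 had its highest class mean in lactotrope-like nuclei. In gonadotrope-like nuclei of 22-month males and females the lactotrope marker list summed to 34530 and 14330 CPM. In those of 5-month males and females this list summed to 6386 and 3038 CPM. Its part in the Trpc6 difference was not tested.

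Cacna2d3 of gonadotrope-like nuclei had 197 and 148 CPM in the 22-month libraries, against 82.1 and 32.6 CPM in the 5-month ones, a log2 fold of 1.77 ± 0.24 (adjusted p = 0.00437). The call was lost without the 5-month females (adjusted p = 0.21), the 22-month males (0.077) or the 22-month females (0.06). Trpc5 had 142 and 46.4 CPM, against 297 and 162 CPM, a log2 fold of -1.27 ± 0.21 that failed without the 5-month males (adjusted p = 0.64), the 5-month females (0.36) or the 22-month females (0.48). Cacna1f, at 31.7 and 159.6 against 21.3 and 17.4 CPM, had a log2 fold of 2.16 ± 0.50 and was lost without the 5-month males (adjusted p = 0.38), the 5-month females (0.44) or the 22-month females (0.31). Both Trpc5 and Cacna1f lie on the X chromosome. Cacng2, Cacng8, Cacng7, Cacna2d1 and Cacna1a were also higher, by 0.68 to 1.04 on the log2 scale, and each call was lost in at least 3 of the 4 fits with a library left out.

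Stem-like nuclei showed 1 higher (3.19% of all genes) and 4 lower (2.91%) of 18 channel genes tested. Cacna1c had 45.5 and 57.3 CPM in 22-month males and females, against 126 and 190.1 CPM in 5-month males and females, without overlap. Its log2 fold was -1.64 ± 0.22 with an adjusted p of 2.52e-10 (edgeR), and the call held when any 1 library was left out. With doublets kept the sign turned, to a log2 fold of 0.56. Cacna1e had 1.96 and 0 CPM (5 and 0 counts), against 17.8 and 13.7 CPM, which is a ratio of 0.110 (95% interval 0.0311 to 0.324) in labelled males and at least 4.30-fold lower in labelled females, taking 3 counts in the 22-month library as the floor. Its adjusted p was 2.83e-05, and its call was lost without the 5-month females (adjusted p = 0.27) or the 22-month females (0.26) and untested without the 5-month males.

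Trpm4 of stem-like nuclei had 36.4 and 40.3 CPM in the 22-month libraries, against 15.2 and 16.7 CPM in the 5-month ones, a log2 fold of 1.21 ± 0.36. This call held in no fit with a library left out. Cacna2d3 had 105 and 109 CPM in the 22-month libraries, against 154 and 233 CPM in the 5-month ones (log2 fold -0.85 ± 0.21), lost without the 5-month males (adjusted p = 0.19) or the 5-month females (0.51). The lactotrope marker list summed to 69450 and 25270 CPM in stem-like nuclei of 22-month males and females, against 10880 and 5188 CPM in 5-month males and females, with 4 to 6 of its 6 markers counted. Its part in these differences was not tested.

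Cacna1c was the channel gene called by labelled age in the largest number of classes, and the direction differed between them. Thyrotrope-like nuclei had 674 and 566 CPM in 22-month males and females, against 249 and 253 CPM in 5-month males and females. This was a log2 fold of 1.30 ± 0.19 (adjusted p = 0.000848, and 0.054 without the 5-month females), the only call among 30 channel genes tested in that class (1.97% of all genes higher). Somatotrope-like nuclei had 121 and 74.5 CPM, against 50.6 and 52.8 CPM, a log2 fold of 0.95 ± 0.19 that was lost without the 5-month males (adjusted p = 0.36), the 5-month females (0.26) or the 22-month males (0.19). In lactotrope-like nuclei the fold was likewise above 0, and in stem-like nuclei alone among these 4 classes it was below 0. The lactotrope marker list was higher in the 22-month libraries in somatotrope-like nuclei as well, at 62930 and 26050 CPM, against 7028 and 5086 CPM, and its part was not tested.

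**Figure D5:**
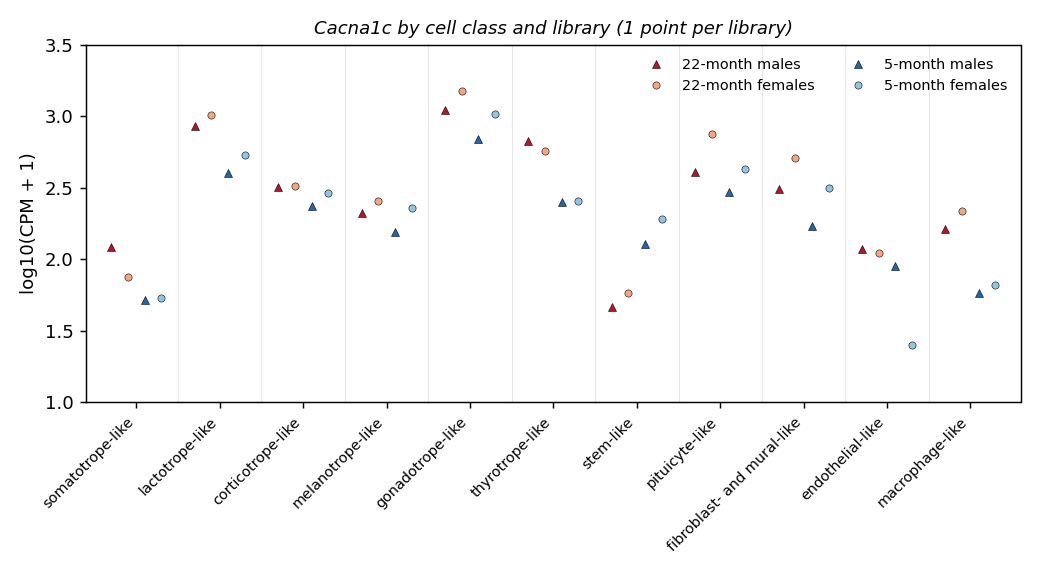
Level of Cacna1c in 11 cell classes as log10(CPM + 1), on an axis that starts at 1, with 1 point per library; triangles are libraries labelled male and circles those labelled female, in red tones for 22-month and blue tones for 5-month. Red points lie above blue ones in lactotrope-like and thyrotrope-like nuclei (674 and 566 against 249 and 253 CPM in thyrotrope-like nuclei), and below them in stem-like nuclei (45.5 and 57.3 against 126 and 190.1 CPM).

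In somatotrope-like nuclei, whose main clusters also divided by labelled age, 3 of 44 channel genes were higher (2.33% of all genes) and none lower (1.01%). Trpm3 had 170.0 and 211 CPM in 22-month males and females, against 44.4 and 69.7 CPM in 5-month males and females, a log2 fold of 1.83 ± 0.14 (adjusted p = 0.000812, and 0.058 without the 5-month males). Trpm3 is most abundant in melanotrope-like nuclei, whose 5 markers summed to 4669 and 1372 CPM in somatotrope-like nuclei of 22-month males and females, against 3318 and 3714 CPM in 5-month males and females, and their part was not tested. Cacnb2 had 906 and 1302 CPM, against 561 and 918 CPM, which overlapped, and its call (log2 fold 0.67 ± 0.14) was lost when any 1 library was left out.

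Corticotrope-like nuclei had 2 of 24 channel genes higher (1.62% of all genes). Cacnb4 had 35.1 and 71.5 CPM in 22-month males and females, against 15.3 and 19.3 CPM in 5-month males and females, a log2 fold of 1.55 ± 0.36 lost without the 5-month males (adjusted p = 0.15) or the 22-month females (0.38). Trpc5 had 585 and 429 CPM, against 274 and 338 CPM, a log2 fold of 0.77 ± 0.20 lost without the 5-month males (adjusted p = 0.61), the 5-month females (0.11) or the 22-month males (0.29). Endothelial-like nuclei had 1 of 8 higher (0.246% of all genes), Trpm3, at 611 and 163 CPM against 11.1 and 28.8 CPM. Sums of this class held only 89758 and 208668 counts of all genes in 5-month males and females, so the 5-month levels of Trpm3 rest on few counts. The call of Trpm3 (log2 fold 3.60 ± 0.49) was lost without the 5-month females, the 22-month males or the 22-month females, and the fold was -0.23 with doublets kept. Melanotrope markers summed to 9432 and 4759 CPM in these endothelial-like nuclei, against 7041 and 5593 CPM.

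No channel gene passed by labelled age with edgeR in melanotrope-like (32 tested, 8 with an unadjusted p under 0.05), pituicyte-like (11 tested, 1), fibroblast- and mural-like (19 tested, 6) or macrophage-like nuclei (10 tested, 1). Of all genes, 2.08% (1.22% higher and 0.864% lower), 2.02%, 0.78% and 0.376% passed the adjusted threshold in those classes. These shares are not at the threshold of the unadjusted counts and cannot be set against them. Immediate-early genes, 8 markers of recent stimulation, summed to 125.6 and 133.5 CPM in melanotrope-like nuclei of 22-month males and females, against 3082 and 250 CPM in 5-month males and females. The 5-month males also stood apart in classes with calls. Gonadotrope-like nuclei had 94.7 and 71.3 CPM of these genes in the 22-month libraries, against 2862 and 109.5 CPM in 5-month males and females. Corticotrope-like nuclei had 191.9 and 98.01 CPM, against 2087 and 243 CPM, and stem-like nuclei 131 and 95.5 CPM, against 977 and 167 CPM, in the same order. The part of this library's immediate-early level in the calls of these classes, by labelled age or sex, was not tested.

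Labelled sex set the libraries labelled female against those labelled male, with labelled age as a term, and these labels do not match the sex chromosomes. Over the classes 6 calls were higher and 2 lower. In lactotrope-like nuclei 3 of 46 genes were higher (0.584% of all genes), among them Trpc6 and Scn2a. Scn2a had 58.5 and 68.4 CPM in 22-month and 5-month females, against 37.5 and 38.1 CPM in 22-month and 5-month males, without overlap. Its log2 fold was 0.75 ± 0.13 (adjusted p = 0.0492), and the calls of both genes were lost when any 1 library was left out, at adjusted p of 0.92 to 1.

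Scn2a was also higher in corticotrope-like nuclei, the only one of 24 genes there (0.811% of all genes higher), at 108 and 109 CPM in 22-month and 5-month females, against 36.8 and 39.4 CPM in 22-month and 5-month males. The log2 fold was 1.55 ± 0.27 with an adjusted p of 0.000373 (edgeR), and 0.25 without the 5-month males or 0.17 without the 22-month males. In melanotrope-like nuclei, where the 5-month males formed a cluster of their own with the high immediate-early sum given above, 1 of 32 genes was higher (1.08% of all genes) and 2 lower (0.48%). The part of that cluster in these calls was not tested. Cacnb4 had 167 and 86.1 CPM in the females, against 49.6 and 42.6 CPM in the males, a log2 fold of 1.49 ± 0.19 lost without the 5-month females (adjusted p = 0.63) or the 22-month females (0.97). Trpc7, a receptor-operated channel, had 4.96 and 9.86 CPM in the females, against 24.4 and 19.7 CPM in the males, a log2 fold of -1.59 ± 0.35 lost without the 5-month females (adjusted p = 0.63), the 22-month males (0.37) or the 22-month females (0.97).

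Scn9a had 14.4 and 20.7 CPM in melanotrope-like nuclei of the females, against 39.2 and 35 CPM in the males, and its call (log2 fold -1.07 ± 0.25) was lost when any 1 library was left out. Cacna1d was the only one of 11 genes called in pituicyte-like nuclei (2.08% of all genes either way), at 1345 and 1019 CPM in the females, against 684 and 533 CPM in the males, and its log2 fold of 0.94 ± 0.26 was likewise lost when any 1 library was left out. The other classes had no channel gene called by labelled sex with edgeR. Somatotrope-like nuclei had 10 of 44 with an unadjusted p under 0.05, gonadotrope-like 8 of 34, thyrotrope-like 3 of 30 and stem-like 2 of 18. Fibroblast- and mural-like nuclei had 4 of 19, endothelial-like 2 of 8 and macrophage-like 1 of 10. Of all genes, 0.193%, 0.646%, 0.469%, 1.26%, 0.164%, 0.184% and 0.0% passed the adjusted threshold in those classes in that order. These shares, too, cannot be set against the unadjusted counts.

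Channels work with other proteins, and 57 genes of this kind were listed: cytosolic partners of the channels, the sodium leak complex, hyperpolarization-activated channels, calcium release channels, store-operated entry, calcium pumps and exchangers, and other TRP and endolysosomal channels. Of these 48 were tested between classes. Gonadotrope-like nuclei had 18 higher (19.0% of all genes) and 5 lower (14.6%), melanotrope-like 14 (16.9%) and 9 (14.2%), and corticotrope-like 13 (11.1%) and 8 (7.99%). Somatotrope-like nuclei had 11 higher (17.9% of all genes) and 16 lower (16.1%), thyrotrope-like 11 (9.72%) and 3 (7.35%), and lactotrope-like 3 (16.0%) and 19 (13.9%). Outside the hormone classes, stem-like nuclei had 12 higher (25.3% of all genes) and 23 lower (21.4%), pituicyte-like 9 (17.4%) and 20 (17.7%), and fibroblast- and mural-like 13 (19.7%) and 19 (17.7%). Endothelial-like nuclei had 11 higher (20.1% of all genes) and 22 lower (22.6%), and macrophage-like 9 (15.9%) and 14 (17.0%).

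The sodium leak complex, the background current of many pacemaking cells, held its 4 genes Nalcn, Unc79, Unc80 and Fam155a lower in each of the 5 classes outside the hormone classes. In stem-like nuclei Fam155a had a log2 fold of -4.65 ± 0.32, Unc80 -3.99 ± 0.25, Unc79 -3.65 ± 0.27 and Nalcn, the pore, -0.60 ± 0.19, which was lost without the 5-month males (adjusted p = 0.091). Nalcn was -3.59 ± 0.30 in endothelial-like nuclei. In fibroblast- and mural-like nuclei the call of Nalcn was lost without the 22-month males (adjusted p = 0.051), and in pituicyte-like nuclei that of Unc80 was lost without the 5-month males (0.052) or the 5-month females (0.11). Calcium removal genes differed among hormone classes: the sodium-calcium exchanger Slc8a2 and the calcium pump Atp2b3 were higher in gonadotrope-like nuclei (4.29 ± 0.24 and 6.06 ± 0.41), and Slc8a3 was higher in thyrotrope-like (3.15 ± 0.19) and lactotrope-like nuclei (2.74 ± 0.17) and lower in melanotrope-like nuclei (-3.25 ± 0.34). Gem, which restrains calcium channels, was higher in melanotrope-like nuclei (4.46 ± 0.30) and lower in lactotrope-like nuclei (-5.60 ± 0.59). Gem was also among the 10 leading genes of the melanotrope-like cluster of 5-month males, beside Fos and Egr1, and its melanotrope-like log2 fold between classes was 4.38 to 4.55 with any 1 library left out. By labelled age its log2 fold in melanotrope-like nuclei was -1.27 ± 0.20 (adjusted p = 0.000881, and 0.77 without the 5-month males).

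By labelled age, lactotrope-like nuclei had 6 of 47 listed genes higher (12.1% of all genes) and 7 lower (11.2%) in the 22-month libraries, which is near the share among all genes. Ryr2, a calcium release channel of the endoplasmic reticulum, had a log2 fold of -3.42 ± 0.19 there (adjusted p = 1.28e-05), kept when any 1 library was left out, and 2.21 ± 0.23 in gonadotrope-like nuclei, where the call was lost without the 5-month females (adjusted p = 0.11). The release channels Ryr3, Itpr2 and Itpr3 were also lower in lactotrope-like nuclei, with log2 folds of -2.13, -2.29 and -1.57, and each of these 3 calls was lost in at least 2 of the 4 fits with a library left out. Fgf13, a cytosolic partner of sodium channels encoded on the X chromosome, had a log2 fold of -2.41 ± 0.20 in thyrotrope-like nuclei (adjusted p = 3.54e-06, kept in all 4 such fits) and 4.01 ± 0.30 in lactotrope-like nuclei, lost without the 5-month males (adjusted p = 0.25), the 5-month females (0.2) or the 22-month females (0.11). Stem-like nuclei had 11 of 31 higher (3.19% of all genes) and 1 lower (2.91%), among them Fam155a at 2.003 ± 0.22, lost without the 5-month males (adjusted p = 0.093), beside the lactotrope marker sums given above for these nuclei. Gonadotrope-like nuclei had 8 higher (4.76% of all genes) and 2 lower (2.38%) of 47. No listed gene was called in pituicyte-like (24 tested), fibroblast- and mural-like (27), endothelial-like (17) or macrophage-like nuclei (25). Of all genes, 2.02%, 0.78%, 0.368% and 0.376% were called there in that order, so the absence of calls is near these shares.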

How the data were processed

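Nuclei of 4 libraries, 1 per labelled group and each of 3 pooled glands, were counted by the authors with Cell Ranger 7.0.1, per the file headers, against mm10, per the labels. The deposited values are raw counts of unique molecular identifiers per gene and barcode. No source used here states if reads in introns entered the counts. Libraries held 33328821 to 65773807 counts, and class sums 89758 to 22442077. Values of 3 of the 60 genes are not reported here. The members and gene lists were chosen with earlier results of these data known.

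Barcodes with at least 500 genes and at most 5% mitochondrial counts were kept. Doublets were removed at a Scrublet score of 0.135 in every library (10.5% to 14.2% of nuclei). That score was the median of the automatic thresholds, which were 0.5692 in 22-month males and 0.1226 to 0.1411 in the other libraries. Nuclei were clustered in scanpy 1.11.5 (Python 3.11.15) on 3000 variable genes without the 60 channel genes. Clustering used 30 components, 15 neighbours and Leiden resolution 1. A cluster was named where its marker score and its margin over the next class were at least 0.75 and 3 markers were each counted in 5% of nuclei. No margin was asked between the fibroblast and mural lists, which scored 3.71 and 3.57 in cluster 12 and gave a joint name. Markers of another class could not outnumber its own among the 10 leading genes. Clusters with low counts per nucleus and no own marker among those genes stayed unnamed. These naming limits were set after the clusters had been seen.

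Counts were summed per class and library and tested with edgeR 4.0.16 (R 4.3.3), TMM scaling, filterByExpr, the quasi-likelihood test and Benjamini-Hochberg adjustment over all genes. Labelled age and sex were fitted together per class, with 1 residual degree of freedom, and classes were compared over all 11 classes with library as a block, with 30. SE is the log2 fold over the square root of F. The scripts were tested on simulated counts with 200 changed genes. Intervals of ratios are 95% counting intervals and floors are 3 counts per library, both covering counting error only. Genes were named by role, from 20 CPM for levels, and from calls on the same side in every library for folds, up to 6 higher and 4 lower per class contrast and 6 each way per labelled contrast. The alternatives were RLE scaling, no filter, DESeq2 1.42.0, each library left out, the 60 genes kept in clustering, resolution 2, doublets kept, and no other label term. Promoter sequences are from RefSeq, GRCm38.p6.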

Additional observations from a re-analysis of the deposited data

Results flagged for a closer look

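For genes called by labelled age in opposite directions in 2 classes, the difference of the log2 folds (22-month over 5-month) was itself tested with edgeR, with library as a block. This test was chosen after the data had been seen, and the 2 classes of a pair share their libraries. The genes were picked because both folds had passed with opposite signs in these same counts, which favours a small p in advance. The test thus adds no separate evidence of a difference. The shares of all genes given below are of genes not picked in this way and are no yardstick for the picked ones. Cacna1c differed by 2.83 in lactotrope-like minus stem-like nuclei (adjusted p = 7.66e-07), by 2.6 in somatotrope-like minus stem-like nuclei (0.000407) and by -2.93 in stem-like minus thyrotrope-like nuclei (0.00675, and 0.084 without the 5-month females). Cacna1e differed by 7.1 in lactotrope-like minus stem-like nuclei (4.4e-06), where 1 of the stem-like libraries had no count.

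Cacna2d3 differed by 4.48 in gonadotrope-like minus lactotrope-like nuclei (adjusted p = 0.0183) and by 2.59 in gonadotrope-like minus stem-like nuclei (0.00406). Cacnb4 differed by 2.31 in corticotrope-like minus lactotrope-like nuclei (0.00617), and Cacng2 by 3.08 in gonadotrope-like minus lactotrope-like nuclei (0.00605). Of all genes, 4.79% passed in lactotrope-like minus stem-like, 1.08% in somatotrope-like minus stem-like, 0.289% in stem-like minus thyrotrope-like, 2.81% in gonadotrope-like minus lactotrope-like, 1.81% in gonadotrope-like minus stem-like and 3.28% in corticotrope-like minus lactotrope-like nuclei. Trpc5 differed by 2.06 in corticotrope-like minus gonadotrope-like nuclei and did not pass (adjusted p = 0.0633). It passed without the 22-month males (2.35e-07) or the 22-month females (0.000288), and not without the 5-month males (0.82) or the 5-month females (0.46).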

How the results depend on the processing

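The total of 257 calls between classes stayed within 1.5 times in every alternative run, and of 88 named folds 86 kept their call with DESeq2, 85 with RLE scaling and 75 with doublets kept (6 lost). With a library left out, 13 named folds between classes were lost without the 22-month females, 8 without the 22-month males, 11 without the 5-month females and 12 without the 5-month males. In all such fits 12 of 21 lactotrope-like, 10 of 19 corticotrope-like and 7 of 17 thyrotrope-like calls between classes were kept. The thyrotrope-like count was 17, and 11 without the 5-month males. The 47 calls by labelled age were 24 with DESeq2, 23 without the labelled sex term and 7 to 33 with a library left out (33 without the 22-month males). In somatotrope-like nuclei the count of 3 was 1 with RLE scaling, 7 with no filter, 1 without the sex term and 0 to 2 with a library left out. The lactotrope-like count of 25 was 16 with DESeq2 and 3 to 13 with a library left out. The corticotrope-like count of 2 was 0 with DESeq2, 1 at resolution 2, 0 without the sex term and 0 to 2 with a library left out. The melanotrope-like count of 0 was 1 with RLE scaling, 3 with no filter and up to 1 with a library left out. The gonadotrope-like count of 10 was 3 with DESeq2, 1 without the sex term and 0 to 7 with a library left out (0 or 1 without a 5-month library or the 22-month females). The thyrotrope-like count of 1 by labelled age was 4 with no filter, 2 at resolution 2, 2 with doublets kept and 0 to 3 with a library left out. The stem-like count of 5 was 1 with DESeq2, 1 with doublets kept, 2 without the sex term and 1 to 3 with a library left out. The fibroblast- and mural-like count of 0 was 2 with no filter, 3 with doublets kept and up to 1 with a library left out. The endothelial-like count of 1 was 0 with DESeq2, 2 with doublets kept, 0 without the sex term and 0 to 3 with a library left out. The macrophage-like count of 0 was 1 with RLE scaling, 1 with no filter and 0 to 2 with a library left out. The 8 calls by labelled sex were 25 with no filter, 3 with DESeq2, 0 without the labelled age term and 1 to 6 with a library left out. The sign turned for Cacna1c in stem-like nuclei (0.56) and Trpm3 in endothelial-like nuclei (-0.23) by labelled age with doublets kept. The cause of these changes was not tested. The macrophage-like class had no value with doublets kept. TMM scaling moved the labelled-age folds of lactotrope-like nuclei by 0.18 on the log2 scale against plain totals, and RLE moved the macrophage-like class contrast by 0.11 against TMM. Comparisons of classes had library as a block. For labelled age and sex no paired analysis was possible, because each group has 1 library and the labels give no replicate numbers. Fits with a library left out hold only 1 label term, and small classes limit what their depth can show.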
